A study of Mus musculus with 2 samples.

Results

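Macrophages of the mouse embryo were selected from 2 single-cell libraries as the barcodes that carried the complement C1q transcripts. A barcode was kept with at least 1000 unique molecular identifiers (UMIs, the count of distinct transcripts captured), at least 500 genes and at most 10% mitochondrial UMIs. It was taken as a macrophage with at least 5 UMIs of C1qa, C1qb and C1qc together, at least 2 of Csf1r, Fcer1g and Tyrobp together, and fewer than 50 of Pf4. This gave 129 macrophages among 18461 kept barcodes, 103 of 9756 at E11.5 and 26 of 8705 at E10.5. The libraries were made from C57BL/6 embryos with no engineered allele named, 1 at E11.5 and 1 at E10.5 (days of embryonic development). In each, the dorsal aorta with the tissue around it and the fetal liver were processed together, so a cell cannot be assigned to either organ. Cells were freed with collagenase/dispase and then trypsin-EDTA, enzymes that cut the matrix between cells, and captured with the 10x 3' droplet assay. With 1 library a stage, stage and library cannot be told apart, the number of embryos pooled is not given in the sources used here, and no difference between stages or cells was tested. Intervals are exact 95% intervals for counting error alone.

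Macrophages of the early embryo descend from yolk sac progenitors that enter the circulation and settle in the tissues before the first haematopoietic stem cells reach the liver. They depend on the receptor for colony-stimulating factor, Csf1r, and clear dead cells and the nuclei that maturing red cells expel. In the fetal liver they become Kupffer cells, which recycle haem and iron, and in the brain microglia, which keep the fractalkine receptor Cx3cr1. Mrc1, the mannose receptor, and Lyve1, a hyaluronan receptor, mark resident macrophages that lie along vessels in many tissues.

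C1qa, C1qb and C1qc encode the 3 chains of C1q, the recognition protein of the classical complement pathway, and lie next to each other (GRCm38, C1qa chr4:136895917-136898803, minus strand, C1qb chr4:136880129-136886187, minus strand, C1qc chr4:136889804-136893065, minus strand). Promoters of C1qb and C1qc are shown because these transcripts chose the cells, and that of Mrc1 because it defines the states compared. Sequences are RefSeq's on GRCm38.p6, from 250 bases before to 50 after the start of transcription, 5′ to 3′. Capitals mark GAGGAA, the core letters bound by the macrophage factor PU.1 (Spi1), or its reverse complement.
C1qb, chr4:136886151-136886450, minus strand: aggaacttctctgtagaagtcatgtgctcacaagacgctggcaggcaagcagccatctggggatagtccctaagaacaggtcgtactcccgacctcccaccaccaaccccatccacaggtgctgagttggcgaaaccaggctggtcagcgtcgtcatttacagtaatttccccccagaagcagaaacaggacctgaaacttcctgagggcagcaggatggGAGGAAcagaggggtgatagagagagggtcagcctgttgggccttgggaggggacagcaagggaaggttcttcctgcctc
C1qc, chr4:136892865-136893164, minus strand: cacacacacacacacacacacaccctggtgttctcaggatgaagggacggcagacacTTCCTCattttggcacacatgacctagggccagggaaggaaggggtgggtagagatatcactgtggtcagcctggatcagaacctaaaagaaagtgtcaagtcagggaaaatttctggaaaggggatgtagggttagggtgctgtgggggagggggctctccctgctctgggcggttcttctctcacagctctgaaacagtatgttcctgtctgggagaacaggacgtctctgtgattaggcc
Mrc1, chr2:14229164-14229463, plus strand: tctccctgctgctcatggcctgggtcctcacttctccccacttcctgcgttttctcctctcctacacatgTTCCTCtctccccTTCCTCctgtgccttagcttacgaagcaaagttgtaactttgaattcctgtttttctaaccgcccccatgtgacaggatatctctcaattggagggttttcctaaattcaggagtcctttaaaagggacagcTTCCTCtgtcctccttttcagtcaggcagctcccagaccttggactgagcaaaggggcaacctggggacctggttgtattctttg
On either strand, C1qb held 1 match, C1qc 1 and Mrc1 3. GAGGAA was present in 28.3% of 32851 promoters and in 7 of the 9 promoters matched to the macrophage marker list, which belong to 8 genes. The longer form GAGGAAGT, whose matches are also matches of the core, was present in 3.20% of all promoters and in 2 of those 9, C1qc among them. In the promoters of Cx3cr1 and Timd4 no match was found, which says only that these letters are not in the window. CACGTG, the letters bound by the lysosome regulator Tfeb, was present in 7.15% of all promoters, in 5 of 20 promoters of the lysosome list (25%) and in 0 of the 9 macrophage ones. C1qa, Csf1r, Hmox1, Tyrobp and Lyve1 were not matched in the promoter table.

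The label was checked against the 12 macrophage markers listed for it. Their summed level was a median of 129 UMIs per 10000 of a cell at E11.5 (10.0 to 224) and 47.0 at E10.5 (1.19 to 107), but 6 of them, the C1q chains among them, chose the cells, so this sum is no check. The 6 that the rule did not use, Adgre1, Fcgr1, Fcgr3, Cd68, Mertk and Ctss, were all counted at both stages, with a summed median of 20.3 per 10000 at E11.5 (2.56 to 48.6) and 6.11 at E10.5 (0 to 16.4). At least 1 of the 6 was counted in 103 of 103 macrophages at E11.5 and 24 of 26 at E10.5. Csf1r, 1 of 3 genes in the second criterion, had 0 to 33 UMIs a cell at E11.5 (median 12; 98 of 103 cells) and 0 to 20 at E10.5 (median 5.5; 23 of 26). Adgre1, the F4/80 antigen and no part of the rule, was counted in 94 of 103 and 14 of 26 macrophages, at 245 CPM (UMIs scaled to a total of 1000000) at E11.5 and 35.2 at E10.5, or 54.8 there without the barcode of 344007 UMIs, which stood apart in depth. The other kept cells held 0.789 and 0.0579 CPM of it. The macrophage receptor Trem2 was in 90.3% of macrophages at E11.5 and 80.8% at E10.5, against 0.957% of neural crest or glia cells, which should lack it, at E11.5 and 0 of 300 at E10.5 (exact upper limit 1.22%). Spi1, the factor that specifies myeloid cells, was in 95 of 103 and 25 of 26.

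Markers of other cell types were counted at low levels in most macrophages. The 7 lymphoid markers had 0 UMIs at E11.5 and 1 at E10.5. The 11 megakaryocyte markers had 42 UMIs in 21 of 103 macrophages at E11.5, at most 2.72 per 10000, and all were at 0 at E10.5. The 10 endothelial markers were seen in 57 of 103 and 19 of 26 macrophages, at most 16.4 and 4.88 per 10000. The 8 mesenchymal markers were seen in 42 of 103 and 15 of 26 (at most 24.2 and 16.2), the 8 neural markers in 14 and 4, and the 10 granulocyte or mast cell markers in 11 and 13. The 12 red cell markers had a median of 8.45 per 10000 at E11.5 and 3.92 at E10.5. The 10 hepatoblast markers had a median of 3.21 per 10000 at E11.5 (0 to 18.4) and 0.766 at E10.5 (0 to 65.4). The upper value at E10.5 belonged to a barcode of 344007 UMIs and 11090 genes, where the next macrophage of that library had 76950 UMIs. This barcode carried 36.4% of all macrophage UMIs at E10.5, 21 C1q UMIs, 0 Mrc1 UMIs, 1111 of the 1114 Afp UMIs and all 28 of Alb, the 2 main proteins that the fetal liver epithelium secretes. It met every criterion of the rule, and several results over all macrophages are given with and without it. Haemoglobin made up a median of 0.0832% of a macrophage's UMIs at E11.5 and 0.0392% at E10.5, with over 2% in 5 and 1 cells and a maximum of 29.8% and 5.22%.

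The C1q limit left few barcodes near it, while at E11.5 Pf4 counts lay close to their limit on both sides. At E11.5 the lowest macrophage had 5 C1q UMIs and the highest barcode just outside had 3, and at E10.5 these values were 9 and 2. The median macrophage had 120 C1q UMIs at E11.5 and 37.5 at E10.5. The Pf4 limit left out barcodes at E11.5 and none at E10.5. At E11.5 the highest macrophage had 47 Pf4 UMIs, and 6 macrophages had at least 40. Another 7 barcodes, with 52 to 134, failed this limit and nothing else. Pf4, a platelet chemokine, was itself counted in 90.3% of macrophages at E11.5 and 53.8% at E10.5. In neural crest or glia cells it was counted in 23.9% and 2.67%. No barcode sequence was shared between the macrophages of the 2 libraries, although 37 of all barcodes were.

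Macrophages made up 1.06% of kept cells at E11.5 (0.863 to 1.28) and 0.299% at E10.5 (0.195 to 0.437), a share 3.53 times as high (2.28 to 5.66). Their median depth was 19587 UMIs and 4443 genes at E11.5, and 24981 UMIs and 5006 genes at E10.5. Deposited barcodes held 159619785 and 151474708 UMIs in all. The fewer macrophages at E10.5 set the precision of each comparison by stage.

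The make-up of C1q transcripts differed by stage. C1qa made up 25.7% of C1q UMIs at E11.5 (24.9 to 26.5) and 16.0% at E10.5 (14.2 to 17.9). C1qb made up 42.9% at E11.5 and 55.5% at E10.5, and C1qc 31.4% and 28.6%. In cells with at least 20 C1q UMIs, 93 at E11.5 and 20 at E10.5, the median C1qa share was 26.4% (0 to 45.5%) and 12.3% (4.76 to 37.5%). Ranges of single cells overlapped, while the intervals of the summed C1qa and C1qb shares did not. Since the rule set a minimum on the sum of the 3 chains, their levels are a description, and C1qa was at 1572 CPM in macrophages at E11.5 and 266 CPM at E10.5, or 412 CPM there without the barcode of 344007 UMIs.

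**Figure D1:**
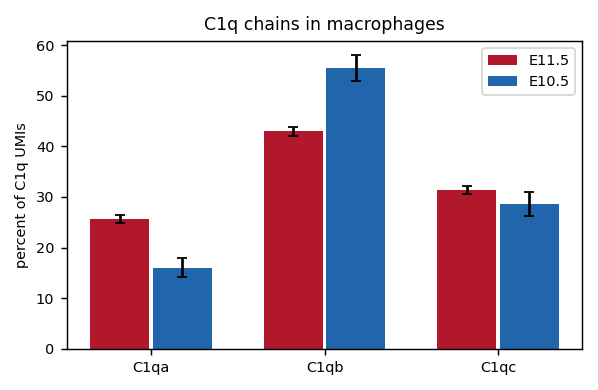
Percent of C1q UMIs from each of the 3 chain genes in the macrophages of each library, E11.5 (12908 UMIs) left and E10.5 (1513 UMIs) right; bars are shares and lines exact 95% binomial intervals. C1qa took 25.7% at E11.5 and 16.0% at E10.5, and C1qb 42.9% and 55.5%.

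At the limits used, every Mrc1/Lyve1-high cell was also Cx3cr1-positive. A cell was called Mrc1/Lyve1-high with at least 5 UMIs of the 2 genes together and Cx3cr1-positive with at least 1 UMI of Cx3cr1. These limits are unequal and most macrophages had Cx3cr1, so they cannot decide whether the states are separate populations. At E11.5, 72 of 103 macrophages were Mrc1/Lyve1-high (69.9%, 60.1 to 78.6) and at E10.5 17 of 26 (65.4%, 44.3 to 82.8). All 72 and all 17 also had Cx3cr1, so cells high without it were 0 of 103 and 0 of 26 (exact upper limits 3.52% and 13.2%). Cx3cr1 without Mrc1/Lyve1 at this level was found in 24 cells at E11.5 and 7 at E10.5, and neither in 7 and 2, whose median depths of 1667 and 5340 UMIs were the lowest. Cx3cr1 was counted in 93.2% and 92.3% of macrophages, against 0.957% and 0.667% of neural crest or glia cells, at median depths of 23795 and 25095.5 UMIs.

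The share called high moved with depth. When each cell was thinned to 5000 UMIs, leaving out 8 and 2 shallower cells, 23 of 95 at E11.5 (24.2%) and 6 of 24 at E10.5 (25.0%) were Mrc1/Lyve1-high, and 20 and 5 of these had Cx3cr1. Mrc1 had 0 to 45 UMIs a cell at E11.5 (median 8) and 0 to 51 at E10.5 (median 8.5). Lyve1 was seen in 36 of 103 and 9 of 26 macrophages, with 0 to 23 and 0 to 10 UMIs and medians of 0, so Mrc1 carried most of the state. Cx3cr1 had 0 to 36 UMIs at E11.5 (median 10) and 0 to 44 at E10.5 (median 6.5). The ranges of all 3 genes overlapped between the stages.

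**Figure D2:**
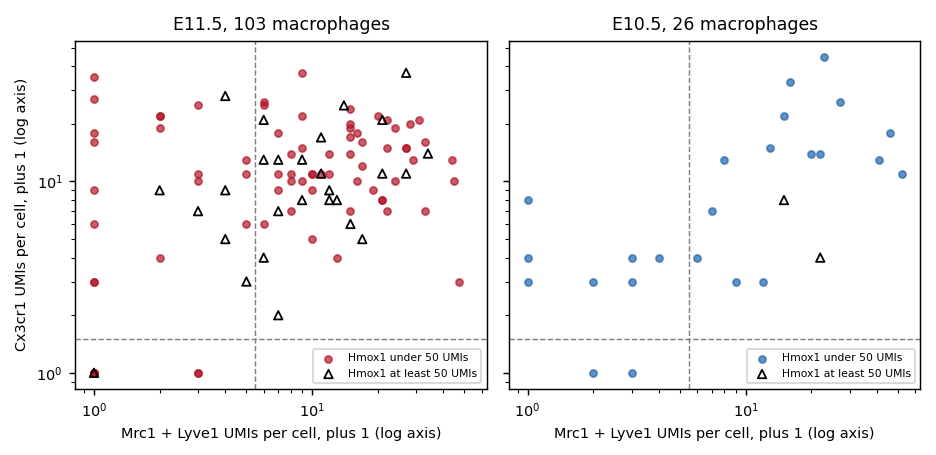
UMIs of Mrc1 and Lyve1 together (x axis) against UMIs of Cx3cr1 (y axis) in each macrophage, both plus 1 on log axes, E11.5 left (103 cells) and E10.5 right (26 cells). Dashed lines mark 5 UMIs of Mrc1 and Lyve1 and 1 UMI of Cx3cr1, and triangles mark cells with at least 50 Hmox1 UMIs; the lower right corner, Mrc1/Lyve1-high without Cx3cr1, holds 0 cells in both panels.

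The stages were first compared within the Mrc1/Lyve1-high cells, 72 at E11.5 and 17 at E10.5, which do not include the barcode of 344007 UMIs. The UMIs of all these cells of 1 library were added up and scaled to CPM over genes other than haemoglobin and mitochondrial ones, and log2 ratios are E11.5 over E10.5 with 0.5 UMI added to each sum. Of 5482 genes with at least 50 UMIs in both sums together, 486 (8.87%) were at least 2-fold higher at E11.5 and 265 (4.83%) at least 2-fold lower, with a median log2 ratio of -0.02. The E11.5 sum was the larger, 1582680 against 498623 UMIs, so the minimum is met more easily by genes that are high at E11.5.

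Among the genes with the highest ratios after allowing for counting error were several with 0 or 1 UMI at E10.5. Ctsh, a lysosomal protease, was at 208 CPM in 62 of 72 cells at E11.5 and 2.01 CPM, 1 UMI, at E10.5, a log2 ratio of 6.11 (4.21 to 12). Ms4a7, a membrane protein of macrophages, had 191 UMIs in 46 of 72 cells at E11.5 and 0 in 17 at E10.5, at least 20.1-fold higher against a floor of 3 counts over the group. It was counted in no E10.5 macrophage, the large barcode included. Against the same floor, Clec4n (dectin-2, a receptor for fungal sugars) was at least 12.8-fold higher, Olfml3 12.3-fold and Tnfaip2 9.03-fold, each with 0 UMIs in the 17 cells at E10.5. Olfml3 was at 73.9 CPM in the 72 cells, near the 72.8 CPM of the other kept cells at E11.5, which held 22.3 CPM at E10.5. Tgm2, a transglutaminase, had 100 UMIs in 19 of 72 cells and 0 in the 17.

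Apoe, the lipid carrier apolipoprotein E, was the most widely shared of these. It was in all 72 cells at E11.5 and 16 of 17 at E10.5, at 6506 and 830.3 CPM, a log2 ratio of 2.97 (2.83 to 3.12). Over all macrophages it had 2 to 414 UMIs a cell at E11.5 (median 113) and 0 to 147 at E10.5 (median 10), so the ranges overlapped. The 147 UMIs were in the barcode of 344007 UMIs, and the next highest E10.5 cell had 91. The other kept cells also held more Apoe at E11.5, 305 CPM against 75.5 CPM at E10.5. The part of free RNA in this difference was not tested. Blvrb, biliverdin reductase B, which acts after haem is broken down, was at 636 CPM at E11.5 and 58.2 at E10.5, a log2 ratio of 3.43 (2.92 to 4.04), and in the other kept cells at 282 and 64.6 CPM. Ccl24, a chemokine for eosinophils, was at 288 and 16.0 CPM (log2 ratio 4.08 (3.18 to 5.39)), and in 68.9% and 15.4% of all macrophages against 7.18% and 6% of neural crest or glia cells. Grina had a log2 ratio of 4.96 and the cytokine Il1b one of 4.73, each with 1 UMI at E10.5. Cd5l, a protein that Kupffer cells secrete, had 351 UMIs at E11.5 and 1 at E10.5 (log2 ratio 6.21 (4.30 to 12.10)), but in 14 of 72 cells, 1 of which held 34.5% of them.

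**Figure D3:**
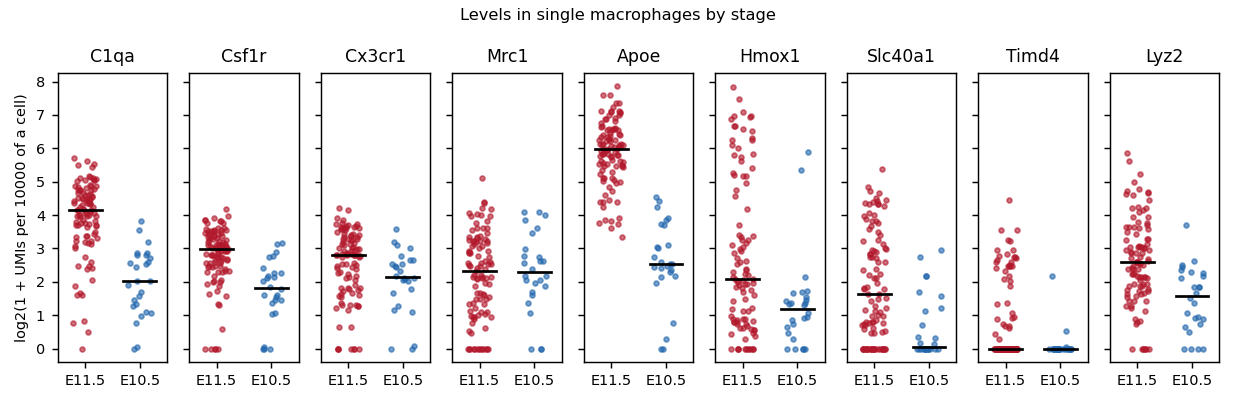
Level of 9 genes in each macrophage as log2(1 + UMIs per 10000 of the cell), E11.5 (103 cells) left and E10.5 (26 cells) right in each panel; points are cells and black lines medians. C1qa, Csf1r, Apoe and Lyz2 have higher medians at E11.5, Mrc1 a similar one, and Hmox1, Slc40a1 and Timd4 are spread over a wide range there. C1qa and Csf1r helped to choose the cells.

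Lysosomal genes were higher at E11.5 as a group. Of 24 listed, 22 were measured, all 22 had a positive log2 ratio, 12 were at least 2-fold higher and 0 lower, and the median was 1.25. Cathepsin S, a protease that also works at neutral pH, was at 603 CPM at E11.5 and 102 at E10.5, a log2 ratio of 2.55 (2.15 to 3.0). Cathepsin D was at 1904 and 491 CPM (1.95 (1.77 to 2.15)) and cathepsin B at 3897 and 1600.4 (1.28 (1.18 to 1.39)). The protease legumain (Lgmn, 1.52) and the scavenger protein Cd68 (1.41) were higher too, while Ctsl (0.12) and Ctsz (0.33) differed little. In the lipid list, 12 of 16 genes were measured, 8 were at least 2-fold higher and 0 lower, with a median of 1.72. The cholesterol exporters Abca1 (2.48 (1.93 to 3.15)) and Abcg1 (2.50 (1.35 to 4.28)) and their activator, the oxysterol receptor Nr1h3 (1.96 (1.17 to 3.0)), were among them. The fatty acid receptor Cd36 had 75 UMIs at E11.5 and 0 at E10.5, at least 7.88-fold higher.

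Haem, iron and Kupffer cell genes were higher at E11.5. Of 16 haem and iron genes, 12 were measured, 10 were at least 2-fold higher and 0 lower, with a median of 1.28. Among the 10 is Trf (2.14), which is also a hepatoblast marker. Hmox1, the haem oxygenase that opens the haem ring, was at 2975 CPM at E11.5 and 604 at E10.5 (2.30 (2.13 to 2.47)), and Slc40a1, the iron exporter ferroportin, at 768 and 84.2 (3.17 (2.75 to 3.67)). The ferritin chains Ftl1 (1.13) and Fth1 (0.88), the haem transporter Slc48a1 (1.40) and the endosomal iron transporter Slc11a1 (2.08) were higher by smaller ratios. Of 14 Kupffer cell markers, 10 were measured and all 10 were at least 2-fold higher, Slc40a1 again among them. Their median was 3.21, or 3.13 with genes at 0 taken at their bound. As in every list here, the minimum of 50 UMIs lets in genes high at E11.5 more easily, so this count is a description. Timd4, a receptor for dead cells, was at 199.7 and 20.1 CPM (3.25 (2.42 to 4.39)) and the ficolin Fcna at 456 and 50.1 (3.16 (2.61 to 3.82)). At E10.5, 1 cell held 9 of the Timd4 UMIs. The scavenger receptor Marco had 82 and 0 UMIs, in 8 of 72 cells at E11.5, and was at least 8.61-fold higher. Cdh5, an endothelial cadherin that the list shares with vessels, had 70 and 0 UMIs. Of the remaining listed markers, Clec4f had 13 and 0 UMIs, Clec1b 30 and 0, C6 1 and 0, and Vsig4, a receptor of adult Kupffer cells, 0 at both stages. Markers of other cell types were also counted in these cells, and their part in the difference was not tested. The 10 hepatoblast markers were at a median sum of 3.24 per 10000 at E11.5 (0.780 to 13.7) and 0.924 at E10.5 (0 to 9.58), and 2 of the 3 measured, Afp and the transferrin Trf, were at least 2-fold higher at E11.5, while Alb, Apoa1, Serpina1a and Hnf4a were at 0 at E10.5. The 12 red cell markers, haemoglobin genes included, were at 8.04 (2.93 to 2985) and 4.0 (1.69 to 19.1). The 10 endothelial markers were at 0.505 (0 to 16.4) and 0.569 (0 to 2.99), with Cdh5 higher and Egfl7, a matrix protein of vessels, at -0.91.

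Genes of the resident state and of microglia were higher at E11.5, while Mrc1 and Cx3cr1 themselves differed little. Mrc1 had a log2 ratio of -0.08 (-0.26 to 0.11), Cx3cr1 one of 0.26 (0.05 to 0.47) and Lyve1 one of 1.26 (0.61 to 2.04). Mrc1 and Lyve1 together chose these cells at both stages, so their ratios are a description. In the resident list, 12 of 18 genes were measured, 7 were at least 2-fold higher and 0 lower (median 1.42). Mrc1 and Lyve1 are members of this list, and Lyve1 is among the 7. Among the others were the folate receptor Folr2 (2.94 (1.90 to 4.52)) and the growth factor Igf1 (3.44 (2.73 to 4.37)). In the microglia list, 11 of 15 were measured, 10 were at least 2-fold higher and 0 lower (median 1.49), including Fcrls (1.49), Gpr34 (1.64) and the purinergic receptor P2ry12 (1.14). Sall1, the factor that keeps microglial identity, had 0 UMIs in all 103 macrophages at E11.5 and at E10.5 had 5 in the barcode of 344007 UMIs, with 0 in the other 25 cells. Of 19 growth factor genes 6 were measured and 4 were at least 2-fold higher (median 2.26, or 2.09 at bounds). These were Igf1 (315 and 28.1 CPM), the granulin precursor Grn (1.59), Bmp2 (2.93 (1.54 to 5.45)) and Spp1, osteopontin, with 57 and 0 UMIs.

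Receptors for dead cells and antibodies were higher, and the lineage factors less so. In the scavenger list 17 of 24 genes were measured, 9 were at least 2-fold higher and 0 lower (median 1.02). Mertk and Axl, kinases that bind the eat-me signal through Gas6, had ratios of 2.16 (1.10 to 3.76) and 2.30 (1.04 to 4.38). In the list of Fc and activating receptors 10 of 13 were measured, 7 were at least 2-fold higher and 0 lower (median 1.15), among them the high-affinity IgG receptor Fcgr1 (1.08 (0.67 to 1.53)) and Trem2 (1.33 (0.96 to 1.74)). Csf1r itself was at 664 and 321 CPM (1.05 (0.81 to 1.30)), and the signalling genes beside it had a median of 0.83. Csf1r helped to choose the cells, as did Tyrobp and Fcer1g of the signalling list, so these values are a description. Of 18 transcription factors 14 were measured and 4 were at least 2-fold higher, among them Cebpa (2.40 (0.99 to 4.93)), Nr1h3 and Id3 (1.91). Spi1 (0.37 (0.14 to 0.62)), Maf (0.30 (0.11 to 0.50)) and Irf8 (0.77 (0.35 to 1.23)) were under 2-fold.

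**Figure D4:**
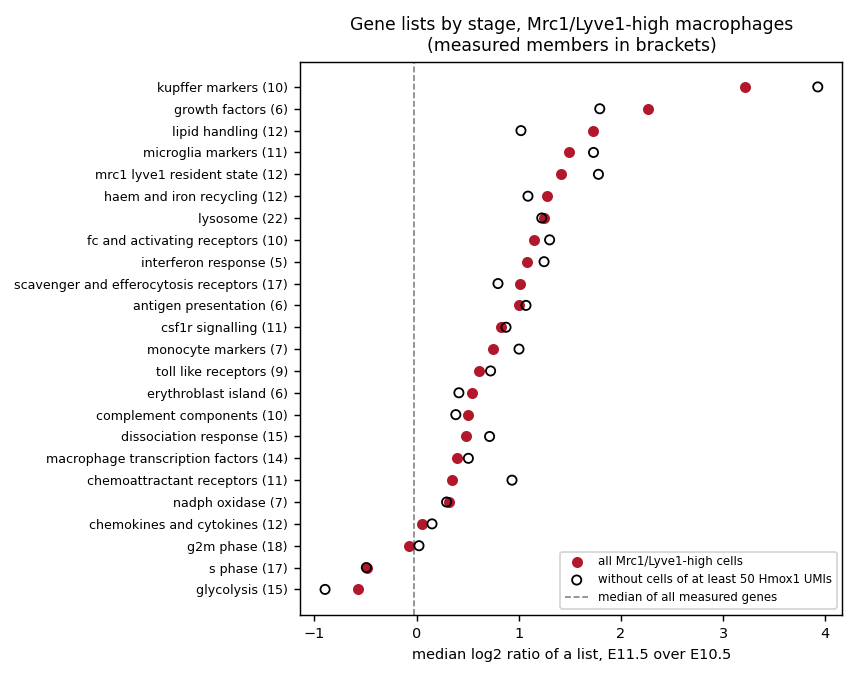
Median log2 ratio of each gene list, E11.5 over E10.5, in Mrc1/Lyve1-high macrophages; filled points are all 72 and 17 cells, open points leave out cells with at least 50 Hmox1 UMIs and rest on fewer measured members, the dashed line is the median of all measured genes (-0.02), and brackets give the measured members. Lists of Kupffer, growth factor, lipid, microglia and resident genes lie highest, S phase and glycolysis genes lowest.

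Several immune lists were at intermediate values. Antigen presentation genes had 6 of 15 measured, 3 at least 2-fold higher and a median of 1.01. These were Psmb8 and Psmb9, subunits of the immunoproteasome (1.91 and 1.05), and Tapbp (1.63). The MHC class II genes H2-Aa, H2-Ab1 and H2-Eb1 and their activator Ciita had 0 UMIs in the 72 and 17 cells. Interferon response genes had 5 of 15 measured and 3 at least 2-fold higher, with a median of 1.08. Toll-like receptor genes had 9 of 14 measured and 3 higher (median 0.62), with Tlr4, the endotoxin receptor, at 2.18 (0.76 to 4.72). NADPH oxidase genes had 7 of 7 measured and 2 higher (median 0.32), Cybb (1.72) and Cyba (1.03), the 2 chains of its membrane core. Complement genes had 10 of 18 measured and 3 higher (0.51), of which C1qa and C1qc were used to choose the cells and the third was properdin, Cfp (1.11). Chemoattractant receptors had a median of 0.35 with 5 of 11 measured genes higher. Erythroblast island genes had 2 of 6 measured genes higher, Mertk and Igf1.

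Chemokines went in both directions. Of 20 chemokine and cytokine genes 12 were measured, 4 were at least 2-fold higher and 4 at least 2-fold lower, with a median of 0.06. The monocyte chemoattractant Ccl2 was at 109.9 CPM in 31 of 72 cells at E11.5 and 531 CPM in 15 of 17 at E10.5, a log2 ratio of -2.27 (-2.56 to -1.99). Ccl4 was at 172 and 698 CPM (-2.02 (-2.25 to -1.78)), and Ccl7 (-1.80) and Ccl12 (-1.31), both related to Ccl2, were lower too. In cells thinned to 5000 UMIs, Ccl4 was seen in 30.5% of all macrophages at E11.5 and 79.2% at E10.5, and Ccl2 in 23.2% and 54.2%. In the other direction lay Ccl24, Cxcl2 (4.26), Il1b and the inflammasome cytokine Il18 (3.46 (1.88 to 6.84)). Cxcl2 was counted in 11 of the 72 cells at E11.5, 1 of which held 44.0% of its UMIs there. Genes induced by tissue dissociation had 5 of 15 members at least 2-fold higher at E11.5 (median 0.48), of which Hspa1a (2.09) and Hspa1b (1.82) are near-identical copies whose split is uncertain. Of the Hspa1a UMIs at E11.5, 54.7% were in 1 cell. The part of the dissociation genes in the chemokine differences was not tested.

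The 12 genes with the lowest ratios, after allowing for counting error, included Ccl2 and Ccl4. Plac8, expressed by monocytes and their progenitors, was at 15.8 CPM in 9 of 72 cells at E11.5 and 162 CPM in 10 of 17 at E10.5 (-3.34 (-4.07 to -2.70)), with 59.3% of the E10.5 UMIs in 1 cell. Ptpn7, a phosphatase of blood cells (-2.73 (-3.43 to -2.08)), and the calcium-binding protein S100a6 (-1.91 (-2.45 to -1.37)) were lower as well. Phgdh, the entry enzyme of serine synthesis, was at 65.7 and 269 CPM (-2.03 (-2.42 to -1.65)), and Srm, spermidine synthase, at 124 and 417 (-1.75 (-2.04 to -1.46)). Nop16 (-1.85 (-2.36 to -1.35)) and Lyar (-1.73 (-2.07 to -1.38)), both nucleolar proteins, Dctd, a deaminase of nucleotide synthesis (-2.13 (-2.92 to -1.37)), Bri3bp (-2.27) and the glycolytic kinase Pfkp (-2.40 (-3.32 to -1.56)) completed the 12 lowest. In the glycolysis list 15 of 16 genes were measured, 14 had negative ratios and 3 were at least 2-fold lower (median -0.57), including the lactate exporter Slc16a3 (-1.37 (-1.75 to -0.98)), and lactate dehydrogenase Ldha was at -0.92.

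Cell cycle genes differed less. S phase genes had 17 of 18 measured, all 17 with negative ratios and 2 at least 2-fold lower, with a median of -0.49. G2 and M phase genes had a median of -0.07 and 1 of 18 at least 2-fold lower. The proliferation antigen Mki67 was at 364 and 245 CPM (0.57 (0.29 to 0.87)). In cells thinned to 5000 UMIs, Top2a was seen in 56.8% and 54.2% of all macrophages, against 45.4% and 51.7% of neural crest or glia cells. Monocyte markers had 7 of 16 measured, 2 at least 2-fold higher and 2 lower, and Ly6c2, Chil3 and Cd177 had 0 UMIs in these cells at both stages.

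Over all 103 and 26 macrophages, the 12 lowest genes had most of their E10.5 UMIs in the large barcode. Of 6678 measured genes 958 (14.3%) were at least 2-fold higher and 504 (7.55%) at least 2-fold lower. Without the barcode of 344007 UMIs, 570 of 6289 (9.06%) were higher and 296 (4.71%) lower. The 12 lowest genes with it, Afp, Ttr, Apoa2, Rbp4 and others, had 73.6% to 100% of their E10.5 UMIs in that barcode. Afp had a log2 ratio of -4.59 with it and 3.09 without it, and Ttr, Apoa2 and Rbp4 likewise turned to positive ratios. Among higher genes, Ms4a7 had 246 and 0 UMIs with or without it, Ctsh 450 and 2 with it, and Apoe a ratio of 3.28 with it and 3.05 without. Rtp4, an interferon-induced gene, had 125 and 0 UMIs, and Mpeg1, the pore protein perforin-2, 388 and 9. Cd300c2, an activating receptor, had 533 and 11. Without the barcode, lysosome genes had 22 positive ratios of 22 measured (median 1.20), and Kupffer markers 10 of 10 (3.32). S phase genes were negative in 18 of 18 (-0.73).

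Within the E11.5 library, the 72 Mrc1/Lyve1-high cells were set against the 24 Cx3cr1-positive cells with fewer than 5 UMIs of Mrc1 and Lyve1, called Mrc1/Lyve1-low. No cell was Mrc1/Lyve1-high without Cx3cr1, so this pair was chosen after the states were counted. At the limit of 5 UMIs the states, within 1 library, differed in fewer genes than the stages, which are also 2 libraries. Of 5513 measured genes 136 (2.47%) were at least 2-fold higher and 47 (0.853%) at least 2-fold lower in the high cells. The share higher moved with the limit, to 1.05% at 10 UMIs and 8.49% at 2. By stage within the high cells it was 8.87% at 5 UMIs. Cx3cr1 was at 567 CPM in the high cells and 581 in the others (-0.04 (-0.23 to 0.16)), and Csf1r at 664 and 550.1. Mrc1, which defines the state, was at 603 and 72.4 CPM. The 7 low cells at E10.5 were too few for a ratio.

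The monocyte chemoattractants Ccl2 and Ccl12 and the adaptor Dab2 were higher in the high cells. Dab2, an adaptor of endocytosis, was at 982 CPM in all 72 cells and 392 CPM in 21 of 24 (1.32 (1.11 to 1.55)), and Stard8, a GTPase-activating protein, at 114 and 27.4 (2.01 (1.28 to 2.96)). Ccl2 was at 109.9 and 17.6 CPM (2.57 (1.68 to 3.79)) and Ccl12 at 65.7 and 3.92 (3.75 (2.18 to 7.13)). Bmp2, a growth factor, was in 28 of 72 and 1 of 24 cells (3.45 (1.86 to 6.83)). Cd5l (4.37), Marco (3.41), Cxcl2 (3.08), Hspa1a (1.55) and Ier3 (1.66) rest on less. Of their UMIs in the high cells, 1 cell held 34.5% of Cd5l, 45.1% of Marco, 44.0% of Cxcl2 and 54.7% of Hspa1a. The ratios of Cd5l, Hspa1a and Ier3 turned negative when cells were thinned to 5000 UMIs, and those of Marco and Hspa1a at a limit of 10 UMIs. In the resident list 4 of 12 measured genes were at least 2-fold higher (median 0.73): Mrc1 and Lyve1 by definition, Gas6 (1.52 (0.99 to 2.13)) and Ccl24 (1.13 (0.76 to 1.53)). Timd4 (0.47) and Stab1 (0.93) were higher by less. The chemokine list had 6 of 11 measured genes higher and a median of 1.13, which was -0.19 in thinned cells.

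**Figure D5:**
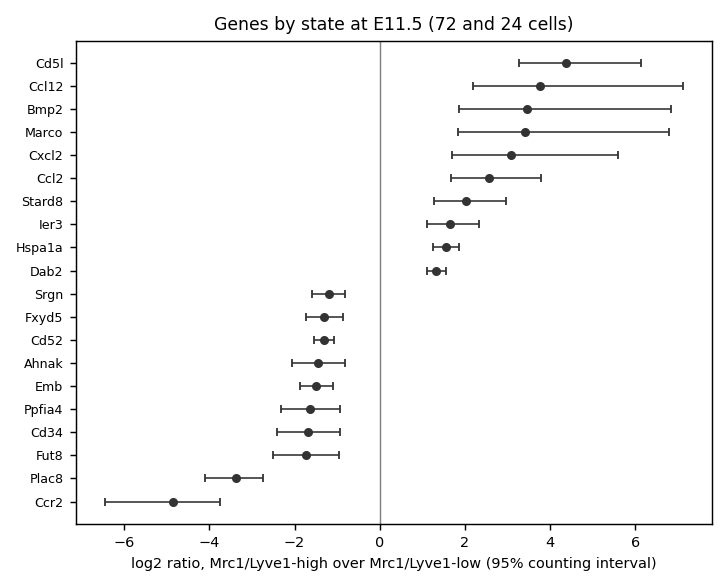
Log2 ratio of the 10 highest and 10 lowest genes in 72 Mrc1/Lyve1-high cells over 24 Cx3cr1-positive Mrc1/Lyve1-low cells at E11.5; points are ratios of summed UMIs and lines exact 95% counting intervals, which do not cover differences between cells. Cd5l and Ccl12 lie highest, Ccr2 and Plac8 lowest.

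Of 8 measured monocyte markers, Ccr2 and Plac8 were at least 2-fold higher in the Mrc1/Lyve1-low cells. Ccr2, the Ccl2 receptor that monocytes use to leave the blood, had 6 UMIs in 2 of 72 high cells and 60 UMIs in 7 of 24 low cells (-4.85 (-6.46 to -3.75)). Plac8 was at 15.8 CPM in 9 high cells and 166 CPM in 12 low cells (-3.38 (-4.10 to -2.74)). Cd34, a progenitor and vessel protein, was at 20.2 and 64.6 CPM (-1.68 (-2.42 to -0.93)), and Emb, the leukocyte surface protein Cd52 and the granule proteoglycan Srgn had ratios of -1.49 (-1.88 to -1.09), -1.31 (-1.54 to -1.07) and -1.20 (-1.59 to -0.81). Fut8 (-1.73), Ppfia4 (-1.63), Ahnak (-1.45) and Fxyd5 (-1.30) were the others named, of which Fxyd5 turned to 0.38 in thinned cells and Fut8 to 0.27 at a limit of 2 UMIs of Mrc1 and Lyve1. Monocyte markers had 2 of 8 measured genes at least 2-fold lower and 0 higher, Plac8 and Ccr2 (median -0.57), and Ly6c2 had 0 UMIs.

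The Ccr2 UMIs came from 9 of 103 macrophages at E11.5 and 1 of 26 at E10.5. The 9 cells had 1 to 15 UMIs (median 7), all had Cx3cr1 (4 to 34 UMIs, median 18), and 2 were Mrc1/Lyve1-high. Their C1qa level was 439.9 CPM and their Pf4 level 132 CPM, against 1572 CPM of C1qa in all E11.5 macrophages. Plac8 was likewise in few cells, with at least 5 UMIs in 8 cells at E11.5 and 6 at E10.5, 2 and 3 of them Mrc1/Lyve1-high. The barcode of 344007 UMIs is among the 6. In neural crest or glia cells Ccr2 was counted in 0 of 209 and 0 of 300 (exact upper limits 1.75% and 1.22%) and Plac8 in 10.0% and 6.33%.

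Hmox1 levels were spread widely at E11.5. They ranged over 0 to 579 UMIs a cell at E11.5 (median 5) and 0 to 151 at E10.5 (median 2.5). At least 50 UMIs were counted in 28 of 103 cells at E11.5 (27.2%, 18.9 to 36.8) and 2 of 26 at E10.5 (7.69%, 0.946 to 25.1). In the 28 cells Hmox1 was at 7647 CPM and in the other 75 at 243 CPM, which is what chose them. The limit was set after the values were seen, so what follows is a description. Of the 28 cells, 21 were Mrc1/Lyve1-high and 27 had Cx3cr1, against 51 and 69 of the 75. Their median depth was 27188 UMIs against 17360, and haemoglobin was a median of 0.263% of their UMIs (up to 29.8%) against 0.0723% (up to 4.45%).

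Kupffer cell and lipid genes were higher in the Hmox1-rich cells. Of 5524 measured genes 184 (3.33%) were at least 2-fold higher in them and 302 (5.47%) lower. Kupffer markers had 9 of 10 measured genes higher and a median of 2.80, lipid genes 8 of 12 (1.49) and haem and iron genes, leaving out Hmox1, which split the cells, 7 of 12 (1.17). Trf (1.11), also a hepatoblast marker, is among these 7, and Slc40a1 counts in both the Kupffer and the haem list. Endothelial markers were higher in the same cells, at a median sum of 1.62 per 10000 (0 to 16.4) against 0 (0 to 3.92) in the rest, and both measured, Cdh5 (2.64), which the Kupffer list shares, and Egfl7 (1.56), were at least 2-fold higher. Red cell markers were at 27.2 (2.93 to 2985) and 7.72 (1.63 to 458), with Slc4a1, the anion exchanger of red cells, at 1.30. Hepatoblast markers were at 4.52 (1.01 to 17.5) and 2.73 (0 to 18.4). The part of these in the difference was not tested. Spic, the factor that directs iron-recycling macrophages, was in 15 of 28 cells and 1 of 75 (6.36 (4.4 to 12.26)), and in 0 of 26 at E10.5. Timd4 was at 439 and 53.0 CPM, in 23 and 15 cells (3.04 (2.68 to 3.44)). Slc40a1 was at 1495 and 270.1 CPM (2.47 (2.30 to 2.64)) and Nr1h3, whose product controls cholesterol export, at 254 and 21.1 (3.57 (3.02 to 4.21)). The galectin Lgals3 (3.73 (3.46 to 4.03)), Fcna (2.79 (2.56 to 3.03)), the interleukin-18 inhibitor Il18bp (3.27 (2.48 to 4.25)) and Gclm, a subunit of the enzyme that makes glutathione (2.76 (2.45 to 3.09)), were also higher. Wfdc17 and Marco were higher by 3.05 and 3.59 on the log2 scale, with 39.3% and 50.7% of their UMIs in 1 cell.

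Most measured monocyte markers and several microglial and early response genes were lower in the Hmox1-rich cells. Microglia markers had 10 of 11 negative ratios and 3 at least 2-fold lower (median -0.68), among them Olfml3 (-2.10 (-2.98 to -1.38)) and Gpr34 (-1.66 (-2.47 to -0.98)). Monocyte markers had 6 of 8 at least 2-fold lower and 2 higher (median -1.52), with Lyz2 the other way at 1494 and 579 CPM. Cx3cr1 was at 407 and 651 CPM (-0.68 (-0.87 to -0.49)) and Mrc1 at 315 and 555.5 (-0.82 (-1.04 to -0.60)). Genes of the dissociation response had 7 of 15 at least 2-fold lower (median -0.93), including Egr1 (-2.38 (-2.96 to -1.89)) and Fosb (-1.97 (-2.58 to -1.45)). Gas7 (-2.78), Cxcl2 (-3.11), Ccl12 (-2.82), the sialyltransferase St8sia4 (-2.63), the oxysterol-guided receptor Gpr183 (-2.42), Ppfia4 (-2.51), Plac8 (-2.51) and Ighm (-2.24) were the other lowest genes.

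In all Mrc1/Lyve1-high cells, 486 of 5482 measured genes (8.87%) were at least 2-fold higher at E11.5 and 265 (4.83%) lower. With the Hmox1-rich cells left out at both stages, these were 427 of 4425 (9.65%) and 262 (5.92%). Fewer list members then reached 50 UMIs, so lists are set over the members measured both ways. That choice drops members that reached 50 UMIs only through the Hmox1-rich cells, so it cannot show what those cells add to a list. The lysosome median over 21 genes was 1.23 without these cells and 1.28 with them, the microglia median over 9 genes 1.73 and 1.49, the lipid median over 7 genes 1.02 and 1.05, and the Kupffer median over 6 genes 3.93 and 3.16. Over all members measured in each setting, the lipid median was 1.02 over 7 genes without these cells and 1.72 over 12 with them. The Kupffer median was 3.93 over 6 genes without them and 3.21 over 10 with them. Without these cells Ctsh and Apoe had ratios of 5.76 and 3.19, and Cd5l, with 73 UMIs left of 351 at E11.5, 4.43 against 6.21. Since the cells left out include 2 of the 17 at E10.5, these values rest on fewer cells at both stages.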

How the data were processed

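UMI counts per gene and barcode were used as deposited. Per the submitters' processing notes, the authors used Cell Ranger 5.0.0 with mm10 (GRCm38), and per the labels' protocols the libraries came from the 10x 3' v3.1 kit. The counts were whole numbers for 31053 genes, of which 30934 identifiers were found in GENCODE M21. UMIs were summed over cells per library and scaled to CPM, leaving out haemoglobin and mitochondrial genes. A ratio has an exact conditional binomial interval, a share a Clopper-Pearson one, and a gene at 0 is bounded with 3 counts. These cover counting error only, and cells are not replicates. Ratios needed at least 10 cells in each group. Named genes were at or above 50 CPM in a sum, no lower there than in the other kept cells of that library, and ranked by the interval bound nearest 0 (12 each way by stage, 10 by state); list members are examples. The outlying barcode, the state pair and the 50 UMI limit of Hmox1 were chosen after the data were seen. Members, lists and rules were chosen with earlier results of these data known. Values of a few list members are not reported here. Doublets were not removed: Scrublet called 0 of 9756 and 1 of 8705 barcodes, which is too few to have worked, and dropping the top 8% of scores is an alternative. Computation used Python 3.11.15, numpy 2.4.6, scipy 1.17.1, pandas 2.3.3 and scanpy 1.11.5, with the ratio step tested on simulated data.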

Additional observations from a re-analysis of the deposited data

How the results depend on the processing

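No paired analysis was possible because each stage has 1 library. The share of macrophages at E11.5 was 2.71 to 4.15 times that at E10.5 over all alternatives. Counts of genes at least 2-fold higher and lower moved most. The number of measured genes changed with the setting too, so each count is given with its share of them. By stage over all macrophages they were 958 (14.3%) and 504 (7.55%). Without cells over 2% haemoglobin they were 546 (9%) and 294 (4.85%), and in thinned cells 206 (10.8%) and 150 (7.88%). At 100 UMIs they were 578 (13.2%) and 313 (7.14%), and without the outlying barcode 570 (9.06%) and 296 (4.71%). At 20 UMIs 1451 (15.9%) were higher. Within Mrc1/Lyve1-high cells (486 and 265) they were 940 and 451 at 20 UMIs and 265 and 146 at 100. By state they were 136 (2.47%) and 47 (0.853%). In thinned cells 25 (1.96%) were higher, and 58 (1.05%) at 10 UMIs of Mrc1 and Lyve1. At 2 UMIs of these 468 (8.49%) were higher and 140 (2.54%) lower, and as a mean over cells 206 (3.74%) and 119 (2.16%). For genes with at least 20 UMIs they were 386 (4.66%) and 221 (2.67%), and with at least 100 UMIs 43 (1.3%) and 17 (0.513%). Lists with a median at least 2-fold higher numbered 16 by stage and 10 without the barcode; by state they numbered 1, but 3 without cells over 2% haemoglobin, 5 at 2 UMIs of Mrc1 and Lyve1, and 3 without Hmox1-rich cells. The share called Mrc1/Lyve1-high at E11.5 was 24.2% in thinned cells, 44.7% at 10 UMIs and 82.5% at 2, and 25.0% in thinned cells at E10.5. These ratios changed sign. By stage, without cells over 2% haemoglobin and without the barcode, Afp became 3.11 and 3.09 and Apoa2 2.66 and 2.58. Ttr became 1.23 and 1.18, and Rbp4 2.39 and 2.33. The outlying barcode was the only E10.5 macrophage over 2% haemoglobin, so at E10.5 both settings left out the same barcode. By state in thinned cells, Cd5l, at 0 and 30 UMIs, became a fitted -4.58, Hspa1a -1.47, Ier3 -0.33, Fxyd5 0.38 and the chemokine list -0.19. At 10 UMIs of Mrc1 and Lyve1, Marco became -0.93 and Hspa1a -1.12, and at 2 Fut8 became 0.27. Within Mrc1/Lyve1-high cells the myeloid progenitor list, with 1 measured gene, became -0.40 at 20 UMIs, where more genes enter. The thinned states are drawn anew at lower depth, so other cells are compared; the other causes were not tested. The planned comparison of cells that were Mrc1/Lyve1-high alone, and of stages within Cx3cr1-positive cells alone, was not run because too few cells were in them. With 26 macrophages at E10.5, genes under 50 UMIs in the sums are not compared.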

Other observations

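The 7 E11.5 barcodes outside the Pf4 limit carried the transcripts of the macrophages. They had 52 to 134 Pf4 UMIs, 34 to 105 of C1qb, 8 to 22 of Csf1r, 6 to 18 of Cx3cr1 and 9 to 28 of Mrc1. Of the 11 megakaryocyte markers, 3 of the 7 had 1 UMI and 4 had 0. Hmox1 was at 244 UMIs in 1 of them and at 2 to 15 in the other 6.

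Etv2, the factor that specifies early blood and vessel cells, had 56 UMIs among the E11.5 macrophages and all of them in 1 Hmox1-rich cell. Ighm, the constant region of the immunoglobulin heavy chain, had 287 UMIs in the 75 E11.5 macrophages below the Hmox1 limit and 32 in the 28 above it, while the 7 lymphoid markers had 0 in both.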
